A study of Homo sapiens with 6 samples.

Results

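The 4 HOX clusters were examined for binding of BRACHYURY (BRA) in differentiating human embryonic stem cells. Peaks were taken when their midpoint fell in 1 of 4 windows of the hg19 genome, each holding a cluster and about 50 kb on each side. The HOXA window was chr7:27080000-27300000, HOXB was chr17:46560000-46860000, HOXC was chr12:54280000-54500000 and HOXD was chr2:176910000-177110000. The windows held 89 of the 54994 peaks in 4 deposited lists, and these peaks merged into 64 separate sites. The clusters were represented by 38 HOX genes, with 10 in HOXA, 10 in HOXB, 9 in HOXC and 9 in HOXD.

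HOX genes encode homeodomain transcription factors that give cells their position along the head-to-tail axis. Within a cluster the genes lie in the order of their expression domains: the low-numbered genes at 1 end are used earlier and further forward, and the high-numbered genes at the other end later and further back. BRA is a T-box transcription factor of the primitive streak, the structure through which endoderm and mesoderm form at gastrulation, and embryos that lack it fail to build the posterior axis.

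The starting cells were H9, a long-established line of human embryonic stem cells. They were treated over 36 h with 10 μM LY294002, which inhibits PI3 kinase, and with FGF2 at 20 ng/ml. FLyA medium also contained 100 ng/ml activin A and gives endoderm progenitors, whereas FLyB medium contained 10 ng/ml BMP4 and gives mesoderm progenitors. BRA was immunoprecipitated with an R&D Systems or a Santa Cruz antibody in 1 library per medium and antibody. The study treats the antibodies as 2 replicate experiments, so each medium has 2 libraries that differ in antibody, and the R&D Systems lists are described first. The R&D Systems lists held 25864 FLyA and 23687 FLyB peaks, and the Santa Cruz lists held 2436 and 3007. Each peak was given as a position of 400 bp with no height or score, so the number of reads behind it is unknown. Expression of the HOX genes was not analysed here.

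BRA peaks were dense at HOXB and HOXA, moderately dense at HOXD and sparse at HOXC, and FLyB cells had more of them than FLyA cells. With the R&D Systems antibody the windows held 26 peaks in FLyA and 51 in FLyB. This is 2.77 peaks per 100 kb in FLyA and 5.43 in FLyB, where the density of the whole list was 0.880 and 0.806. The windows were therefore 3.14 times as dense as the list in FLyA and 6.73 times in FLyB. They held 0.101% of the FLyA list (95% Clopper-Pearson interval 0.0657 to 0.147%) and 0.215% of the FLyB list (0.160 to 0.283%). These intervals, like all those below, cover counting error only, and they are too narrow because neighbouring peaks are not independent.

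HOXB had the most peaks, with 15 in FLyA and 30 in FLyB. Its density was 5 peaks per 100 kb in FLyA and 10.0 in FLyB. Chromosome 17 is itself rich in BRA peaks, at 1.72 and 2.05 per 100 kb, so HOXB stood 2.91 times above its own chromosome in FLyA and 4.89 times in FLyB. When the span of the peaks on each chromosome was cut into tiles of 300 kb, 0.204% of 9786 tiles held at least the 15 FLyA peaks of HOXB. Only 2 tiles, or 0.0204%, held 30 or more FLyB peaks. Of these 2 tiles, 1 overlapped the HOXB window itself and the other lay elsewhere.

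**Figure D1:**
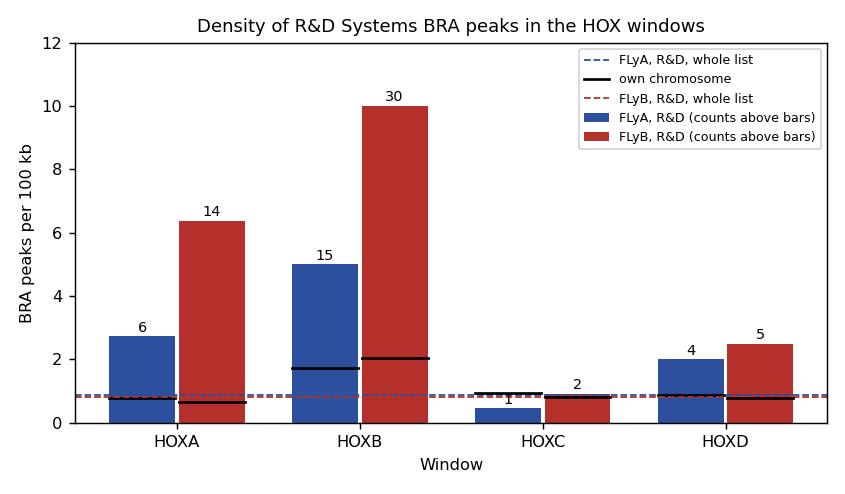
Bars give R&D Systems BRA peaks per 100 kb in each HOX window in FLyA (blue) and FLyB (red), with the number of peaks above each bar. Dashed lines mark the density of each whole list and black lines that of the window's own chromosome. HOXA, HOXB and HOXD stand above both lines in both media, and the HOXC bars, for 1 and 2 peaks, lie near or below them.

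HOXA held 6 FLyA and 14 FLyB peaks, a density of 2.73 and 6.36 per 100 kb. Chromosome 7 had 0.793 and 0.666 peaks per 100 kb, so HOXA exceeded it 3.44 times in FLyA and 9.55 times in FLyB. Of 13346 tiles of 220 kb, 5.93% held at least 6 FLyA peaks and 0.322% at least 14 FLyB peaks. In relation to their own chromosomes, the FLyB peaks of HOXA were thus denser than those of HOXB.

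HOXD held 4 FLyA and 5 FLyB peaks, or 2 and 2.50 per 100 kb. This was 2.26 and 3.17 times the density of chromosome 2, and 15.2% and 8.74% of 14683 tiles of 200 kb held as many. HOXC held 1 FLyA and 2 FLyB peaks, which 72.2% and 40.0% of the tiles of 220 kb equalled or exceeded. The HOXC window was therefore no denser than an ordinary stretch of the genome, with 0.517 times the density of the whole list in FLyA and 1.13 times in FLyB.

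**Figure D2:**
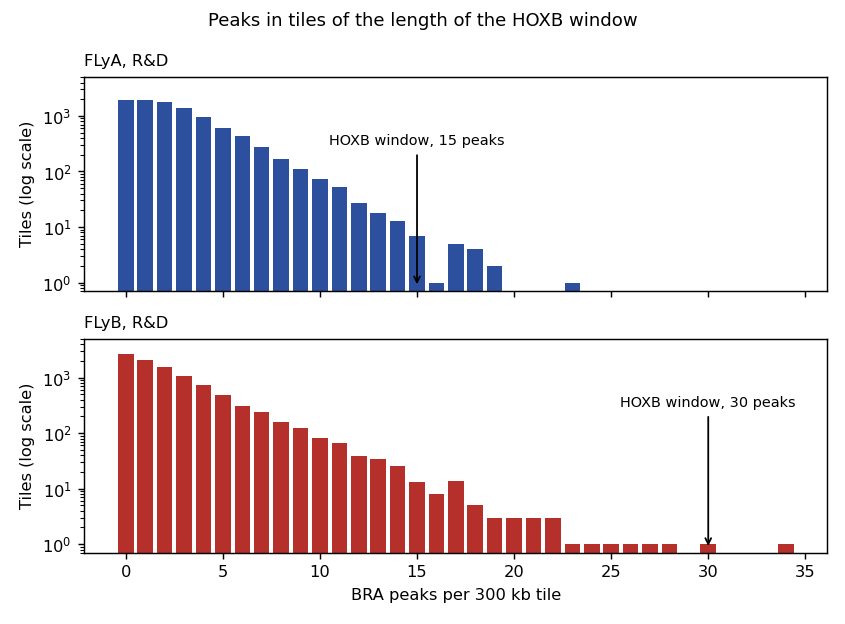
Number of tiles (log scale) against the BRA peaks in each 300 kb tile for FLyA (upper panel) and FLyB (lower panel), R&D Systems lists. Arrows mark the HOXB window, whose 30 FLyB peaks lie at the far right of a distribution with a median of 2 and a maximum of 34.

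The 4 windows together had 1.96 times as many R&D Systems peaks in FLyB as in FLyA (95% interval 1.20 to 3.28), although the FLyB list as a whole was the shorter, at 0.916 times the FLyA list. The ratio was 2.33 at HOXA (0.842 to 7.41), 2 at HOXB (1.04 to 4), 1.25 at HOXD (0.269 to 6.30) and, from 3 peaks in all, 2 at HOXC (0.104 to 118). An excess of FLyB over FLyA peaks as large as the 15 of HOXB was found in 5 tiles, 0.0511% of all tiles of its length. For the excess of 8 peaks at HOXA this was 0.337%. The median tile held 2 peaks per list at the length of HOXB and 1 at that of HOXA. Most tiles therefore hold too few peaks for such an excess, and these shares in part restate the density of the windows. Whether tiles overlapping the windows themselves are among those counted was not determined. The intervals at HOXA, HOXC and HOXD include both a smaller and a larger number of peaks in FLyB. Unlike the whole lists, chromosome 17 had more FLyB than FLyA peaks, at 2.05 against 1.72 per 100 kb. Relative to this chromosome, HOXB was 2.91 times as dense in FLyA and 4.89 times in FLyB. The ratios and their intervals were not adjusted for the chromosome. The ratio of the 2 densities of chromosome 17 lies inside the HOXB interval of 1.04 to 4. That interval therefore does not separate the FLyB excess of HOXB from that of its chromosome.

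The Santa Cruz lists were too short to place the difference between media. They held 5 FLyA and 7 FLyB peaks in the windows, a ratio of 1.40 (0.382 to 5.59), and the whole Santa Cruz FLyB list was 1.23 times its FLyA list. At HOXB this antibody gave 3 peaks in each medium, at HOXA 1 in FLyA and 3 in FLyB, at HOXD 1 in each, and at HOXC 0 in both. Relative to its own lists this antibody did find the windows dense, by 6.43 times in FLyA and 7.29 times in FLyB. The interval of its ratio includes both an equal number of peaks and the 1.96 of the R&D Systems antibody, so the FLyB excess was not detectable with it. Relative to the whole lists, the windows had 2.14 times as many peaks in FLyB as in FLyA with the R&D Systems antibody and 1.13 times with the Santa Cruz antibody. Taking the antibodies as 2 pairs, the mean was 0.64 ± 0.65 on the log2 scale (SD, n = 2), higher in FLyB in 2 of 2 pairs, and a two-sided exact permutation test gave p = 0.5, the smallest that 2 pairs allow.

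FLyA peaks of the HOX windows coincided with FLyB peaks more often than those of the whole list. For FLyB peaks the shared part was not distinguishable from that of the list. The FLyA share was not compared with stretches of matched FLyB density. Of the 26 FLyA peaks, 15 overlapped a FLyB peak by at least 1 bp, which is 57.7% (36.9 to 76.6%), where 33.0% of the whole FLyA list did. The same 15 pairs made up 29.4% of the 51 FLyB peaks (17.5 to 43.8%), where 36.1% of the whole FLyB list did, a value inside that interval. At HOXB, 9 of 15 FLyA peaks and 9 of 30 FLyB peaks were shared, at HOXA 4 of 6 and 4 of 14, and at HOXD 2 of 4 and 2 of 5. None of the 3 peaks at HOXC was shared. The midpoints of the 15 shared pairs lay 4 to 291 bp apart, with a median of 47 bp, and 8 pairs lay within 50 bp.

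Peaks that were not shared often lay near a peak of the other medium. Among the 11 FLyA peaks without a partner, 7 had a FLyB peak within 10 kb, where 23.7% of such peaks of the whole list did, and the median distance was 6.64 kb beside 36.6 kb for the list. Among the 36 FLyB peaks without a partner, 24 had a FLyA peak within 10 kb, where 31.1% of the list did, and the median distance was 6.71 kb beside 23.6 kb. Peaks of any kind lie close together in dense windows, and these distances were not compared with stretches of matched density.

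Merging all 4 lists gave 17 sites at HOXA, 37 at HOXB, 3 at HOXC and 7 at HOXD. In the R&D Systems lists, 15 of the 64 sites were bound in both media, 11 in FLyA only and 36 in FLyB only, and a further 2 were found with the Santa Cruz antibody only. HOXB held 21 of the 36 FLyB-only sites and HOXA 10. A Santa Cruz peak lay at 7 of the 15 sites bound in both media, at 0 of the 11 FLyA-only sites and at 2 of the 36 FLyB-only sites. Over the merged sites of the whole lists, a Santa Cruz peak lay at 18.4% of those bound in both media, 1.64% of FLyA-only and 7.85% of FLyB-only sites. Those 2 HOX sites, singled out after their values were seen, were chr7:27154585-27155038 in HOXA and chr17:46623712-46624112 in HOXB.

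The clusters were bound unevenly along their length, and the extra FLyB sites lay mostly in the core segments nearer the low-numbered genes. Each window was divided into the outer 50 kb on either side and a core between them, which was cut at its middle into an anterior and a posterior segment, a division chosen after the positions had been seen. The anterior segment, next to the low-numbered genes, held 10 FLyA and 31 FLyB peaks over the 4 clusters. The posterior segment held 5 and 6. The anterior flanks had 4 and 7 peaks, and the posterior flanks 7 in each medium. Of the 36 FLyB-only sites, 25 lay in the anterior segments of the cores and 3 in the posterior segments. HOXB gave 14 of those 25 and HOXA 6. The cut was made by length and not by gene number, and no peak was placed relative to a gene. How many genes each segment holds was not determined, so the site counts are not set against gene density. At HOXB a long interval lies between HOXB9 and HOXB13, so its anterior segment can hold more than the low-numbered genes.

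**Figure D3:**
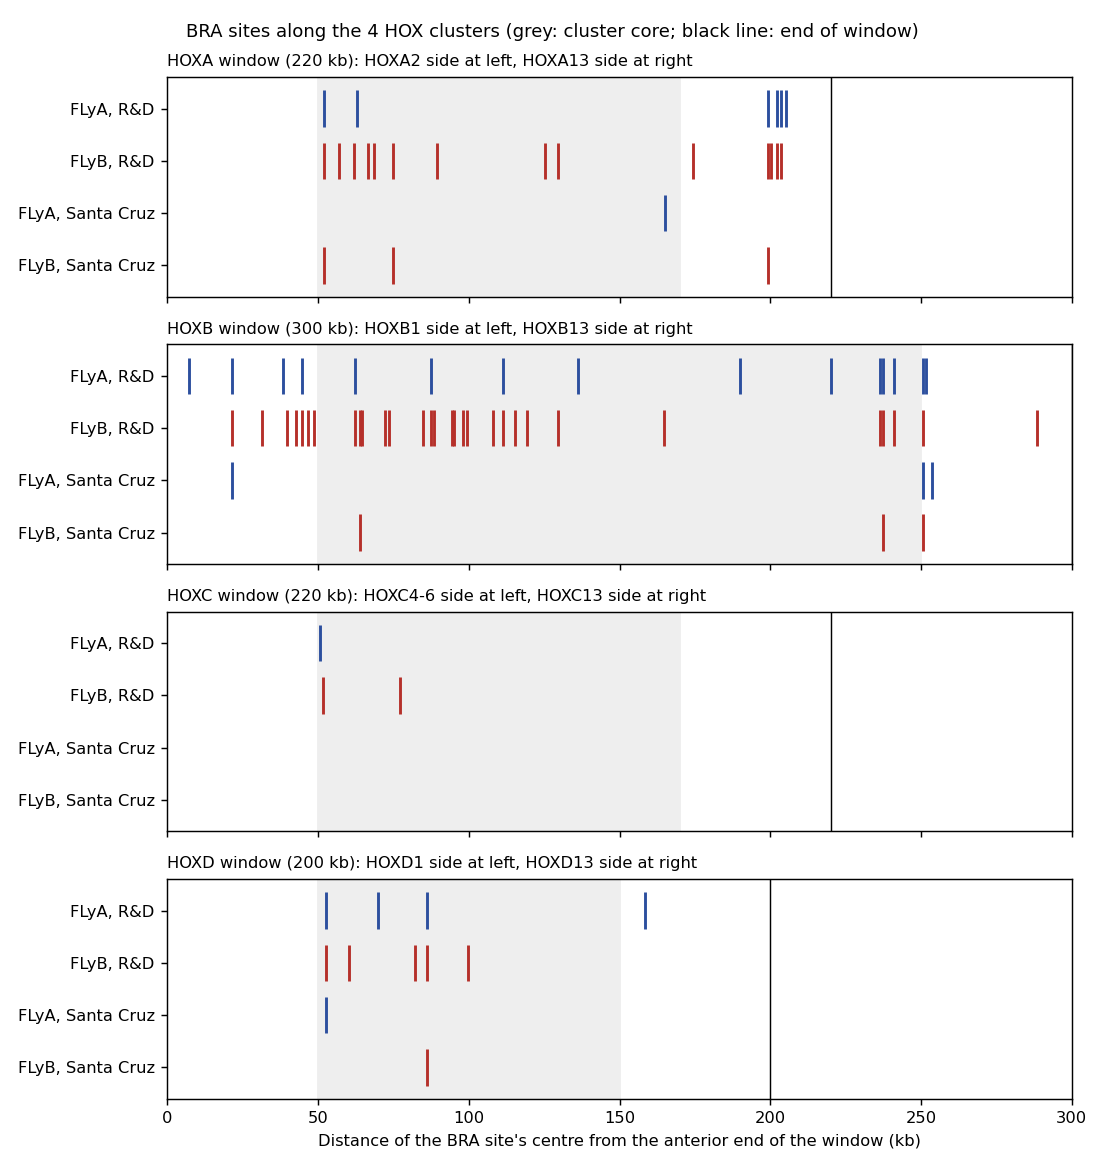
Centres of BRA peaks by their distance in kb from the anterior end of each window, with 1 row for each medium and antibody (FLyA blue, FLyB red). Grey marks the core of each window and the black line its end. The FLyB peaks of HOXB crowd in the first 129 kb, those of HOXA fall into an anterior and a posterior group, and HOXC and HOXD have few.

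The gene order below comes from RefSeq annotation of a later build and is used only to say which genes neighbour each other. HOXB is ordered from HOXB1 through HOXB9 to HOXB13, with SKAP1 beyond HOXB1 and TTLL6 beyond HOXB13. On the HOXB1 side, FLyB peaks formed a nearly continuous series, of which 7 lay in the anterior flank and 17 in the anterior segment of the core. FLyA had 4 peaks in each of these stretches. In the posterior segment of the core the media were close, with 5 FLyA and 4 FLyB peaks, and the posterior flank had 2 in each.

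Runs of FLyB-only sites made up most of this difference at HOXB. A run of 5 such sites spanned 21.2 kb (chr17:46623712-46644894) and a run of 6 spanned 19.7 kb (chr17:46648396-46668142). Another run of 3 sites spanned 14.5 kb (chr17:46675195-46689679). Between the runs lay 2 sites bound in both media, chr17:46647275-46647707 and chr17:46671226-46671716. The median spacing of neighbouring FLyB peaks at HOXB was 3.75 kb, against 44.9 kb in the whole list, and that of FLyA peaks was 16.6 kb, against 53.5 kb. Beyond the last run FLyB had a lone peak at chr17:46724510-46724909 and then a gap (chr17:46724909-46796057), with the midpoints of the flanking peaks 71.5 kb apart. Within it FLyA had 2 peaks, at chr17:46749712-46750111 and chr17:46779898-46780297.

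Past this gap, towards HOXB13, 4 sites bound in both media lay within a short stretch, of which the first was chr17:46796057-46796509. HOXB13 is the only posterior gene of its cluster apart from HOXB9, and it is separated from HOXB9 by a long interval that also holds MIR196A1 and PRAC1. One of the 4 sites, chr17:46810392-46810824, was the 1 site of the 64 that was present in all 4 lists. Its 4 peak midpoints lay within 33 bp of each other. Another of the 4 sites, chr17:46796979-46797478, was found in both R&D Systems lists and in Santa Cruz FLyB. At the other end of the window, in the flank beyond HOXB1, chr17:46581110-46581673 was found in both R&D Systems lists and in Santa Cruz FLyA. A Santa Cruz peak in FLyA alone lay at chr17:46813347-46813746.

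HOXA is ordered from HOXA2 to HOXA13, with EVX1, another homeobox gene, beyond HOXA13 and the long non-coding RNA HOTTIP between them. Its peaks fell into an anterior group, with 2 FLyA and 7 FLyB peaks in the anterior segment of the core, and a posterior group, with 4 and 5 peaks in the flank beyond HOXA13. FLyA had a gap between these groups (chr7:27142975-27279148), with the midpoints of the flanking peaks 137 kb apart. Within that gap FLyB had a run of 7 sites over 108 kb (chr7:27146248-27254588), interrupted only by a Santa Cruz peak in FLyA at chr7:27244891-27245290. FLyB had 2 peaks in the posterior segment of the core, where FLyA had 0.

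The most anterior HOXA site, chr7:27131541-27132331, was present in both R&D Systems lists and in Santa Cruz FLyB. It is 791 bp long and its peak midpoints lay up to 391 bp apart. In the posterior group, chr7:27279148-27279579 was found in the same 3 lists, and the outermost site, chr7:27285051-27285450, was bound in FLyA only. Of the 4 FLyA peaks of this group, 3 overlapped a FLyB peak.

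HOXD is ordered from HOXD13 to HOXD1 with increasing coordinate, between the homeobox gene EVX2 and MTX2. All 5 of its FLyB peaks and 3 of its 4 FLyA peaks lay in the anterior segment of the core, on the side of HOXD1, HOXD3 and HOXD4. The 2 shared sites were chr2:177023541-177023961, also found in Santa Cruz FLyB, and chr2:177057035-177057463, also found in Santa Cruz FLyA. Their R&D Systems midpoints in the 2 media lay 13 and 4 bp apart, the latter being the closest pair of the 15. The other FLyB peaks were at chr2:177010085-177010484, chr2:177027816-177028215 and chr2:177049542-177049941. FLyA alone had chr2:177039890-177040289 and, in the flank beyond HOXD13, chr2:176951475-176951874.

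The 3 sites of HOXC also lay in the anterior segment of the core, which in this cluster is the side of HOXC4, HOXC5 and HOXC6. A FLyB peak at chr12:54448180-54448579 and a FLyA peak at chr12:54449253-54449652 were 1.07 kb apart. The remaining site was a FLyB peak at chr12:54422528-54422927. No peak of any list lay in the posterior segment of the HOXC core, which is the side of HOXC13, or in either flank. HOTAIR, a long non-coding RNA, lies between HOXC12 and HOXC11 on that side.

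**Figure D4:**
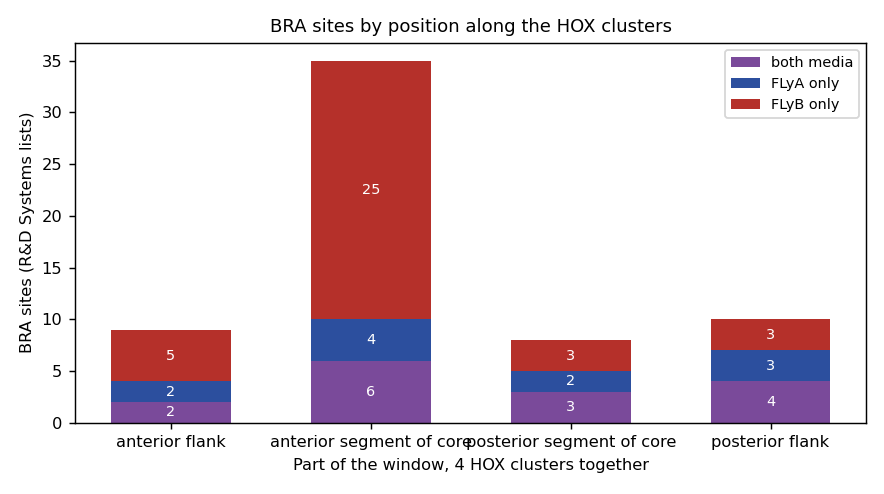
Number of BRA sites bound in both media (purple), in FLyA only (blue) and in FLyB only (red) in the R&D Systems lists, for 4 divisions of the windows summed over the clusters. The anterior segment of the core holds 25 of the 36 FLyB-only sites, and the other 3 divisions hold 5, 3 and 3.

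All 7 Santa Cruz FLyB peaks of the windows overlapped an R&D Systems FLyB peak (100%, interval 59.0 to 100%), where 79.0% of that list did. In FLyA this was so for 3 of 5 (60%, 14.7 to 94.7%), where 31.9% of the list did. In the other direction, a Santa Cruz peak lay on 3 of the 26 FLyA peaks of the R&D Systems antibody and on 7 of its 51 FLyB peaks (13.7%), where 3.02% and 10.0% of the lists carried one. Between media, 1 of 5 Santa Cruz FLyA peaks overlapped a Santa Cruz FLyB peak, where 10.1% of the list did, and 1 of 7 FLyB peaks overlapped a FLyA peak, where 8.28% of the list did. The 7 sites with 3 or 4 lists named above were divided into 2 at HOXA, 3 at HOXB and 2 at HOXD. All of them were bound in both media with the R&D Systems antibody. This is nearly fixed by the choice of sites, because a site in 3 or 4 lists always spans both media. Only a site in both Santa Cruz lists and a single R&D Systems list could differ.

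The promoters of the HOX genes were searched for the letters that T-box factors recognise. RefSeq promoter sequences (GRCh38.p14, 250 bases before to 50 after the start) were at hand for 27 promoters of 20 of the 38 genes, of which 9 were HOXA genes, 1 was HOXB, 2 were HOXC and 8 were HOXD. The T-box element TCACACCT, read on either strand, was in 0 of 27 HOX promoters and in 0.980% of all 35116 promoters. Its core, ACACCT, which lies within that element, was in 1 of 27 (3.70%) and in 11.4% of all promoters. HOXA3 alone has 7 of these promoters, and HOXC4 and HOXC5 share 1, so 26 are distinct. Counted once each, 0 of 26 held the 8-letter element and 1 of 26 the core (3.85%). The promoter that held it was the second listed for HOXA10. The median GC content was 58.0% in the HOX promoters (43.7 to 76.3%) and 58.7% in all promoters, and the median number of CpG dinucleotides was 22 and 14. Among other genes of the windows the core was in 1 of 7 promoters and the 8-letter element in 0. Neither was in any of 9 promoters of the TALE homeodomain genes, which encode partners of HOX proteins on DNA.

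The HOXA10 promoter is shown because it alone held the core, and those of HOXB1 and HOXD1 because they are the most anterior genes of their clusters, on the side where FLyB peaks were most frequent. They read 5′ to 3′ along the gene, and capitals mark AGGTGT, the reverse complement of the core ACACCT, which lies on the opposite strand. Its first base is at position -194 from the start of HOXA10. Whether a BRA peak covers any of these promoters was not analysed here, because peaks and promoters are on different builds.
HOXA10, chr7:27174271-27174570, minus strand: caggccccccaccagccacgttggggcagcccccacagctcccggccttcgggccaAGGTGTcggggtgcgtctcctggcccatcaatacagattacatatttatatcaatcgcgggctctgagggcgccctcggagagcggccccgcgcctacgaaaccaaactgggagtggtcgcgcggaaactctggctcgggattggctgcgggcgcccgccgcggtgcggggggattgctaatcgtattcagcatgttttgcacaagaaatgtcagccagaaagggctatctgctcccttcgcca
HOXB1, chr17:48530962-48531261, minus strand: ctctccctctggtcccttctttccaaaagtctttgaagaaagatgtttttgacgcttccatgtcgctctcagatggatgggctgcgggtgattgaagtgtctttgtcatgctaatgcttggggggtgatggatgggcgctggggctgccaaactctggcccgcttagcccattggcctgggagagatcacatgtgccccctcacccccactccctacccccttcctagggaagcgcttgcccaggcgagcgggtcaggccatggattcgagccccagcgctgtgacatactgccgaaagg
HOXD1, chr2:176188418-176188717, plus strand: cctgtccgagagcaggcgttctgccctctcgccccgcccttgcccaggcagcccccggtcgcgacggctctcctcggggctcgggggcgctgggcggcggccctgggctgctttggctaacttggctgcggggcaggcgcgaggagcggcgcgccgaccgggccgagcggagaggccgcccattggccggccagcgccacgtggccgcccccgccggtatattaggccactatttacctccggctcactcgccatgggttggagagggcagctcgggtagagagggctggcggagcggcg
The HOXB1 and HOXD1 promoters held neither the core nor the 8-letter element. No match says only that these letters are missing from this window of the promoter.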

How the data were processed

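BRA ChIP-seq of H9 cells was analysed from 4 peak lists, 1 library per medium and antibody, with the antibodies as the replicate experiments of the study. The 2 input libraries were not analysed here. The authors sequenced on a Genome Analyzer II and called peaks with MACS. Their processing notes name hg19 and Bowtie 0.12.7. The deposited lists hold other values than scores or counts, namely a chromosome, start and end, with 400 bp for every peak. The track lines of the Santa Cruz lists name a threshold of 1e-12. For the R&D Systems lists the threshold, and for all lists the control library and the handling of duplicate reads are not given in the sources used here. Read depth is unknown. The last peak on chromosome 1 ends at 249240096, past the end of the last GRCh38 gene there at 248937099. No other check of the build was made.

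Peaks with their midpoint in a window were counted in Python 3.11.15 (NumPy 2.4.6, SciPy 1.17.1). Peaks of different lists were shared if they had 1 bp or more in common, and overlapping peaks of the 4 lists were merged into sites. Tiles of each window's length were laid end to end between the first and last peak of each chromosome, and chromosome densities use the same span. Shares and ratios have exact 95% binomial intervals. The antibodies were also compared as 2 pairs by an exact permutation test of signs. Figures used matplotlib 3.10.9. The overlap functions were tested on simulated data, and overlap counts were checked with bedtools 2.31.1. The members and lists were chosen with earlier results of these data known. The rule for naming sites was to name those in 3 or 4 lists, and other sites named were chosen after their positions were seen.

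The gene annotation and promoters at hand were of GRCh38.p14. They gave gene names and neighbour order, which was taken to be the same in hg19, and no peak was assigned to a gene. Counts of HOX genes with a peak nearby and of T-box motifs in peaks were planned and not run. Not every gene of the windows is reported here.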

Additional observations from a re-analysis of the deposited data

How the results depend on the processing

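Of 55 values recomputed under other settings, 35 stayed close to the reported value, which for a count means within 1.5 times and for a share or ratio within its 95% interval, and 20 moved. The 26 FLyA peaks became 15 in the cluster cores without the outer 50 kb, 3 when a Santa Cruz peak was also required, and 11 without the HOXB window. The 51 FLyB peaks became 7 when a Santa Cruz peak was also required and 21 without HOXB. The share of peaks common to both media with the Santa Cruz antibody was 20% in FLyA and 14.3% in FLyB. Across the other settings it ranged from 50 to 65.4% in FLyA and from 24.3 to 33.3% in FLyB. Cutting whole windows at their middle, so that the flanks were included, gave 12 FLyA and 13 FLyB peaks on the posterior side, and 14 and 38 on the anterior side. The setting without HOXB, both divisions of the windows and the pairing of antibodies were chosen after seeing the data. Counts of genes near peaks and motifs in peaks, with their alternatives, were not run. With the antibodies as a replicate block, the FLyB to FLyA ratio of the windows relative to the whole lists was 1.56, beside 2.14 for the R&D Systems antibody alone. Without scores or read depth, weak and strong peaks count alike, and within an antibody, medium cannot be told apart from library.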
